A study of Mus musculus with 6 samples.

Results

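Mef2c, Gata4 and Tbx5 are the transcription factors that doxycycline switches on in iMGT-Myh6-eGFP-MEF, a single line of mouse embryonic fibroblasts. They were taken as the rows of the deposited count table that carry these symbols, 3 of 24516, and all 3 passed the filter on low counts that left 13427 genes for testing. The table holds poly(A) RNA sequencing of 6 libraries, 2 per group, described by the submitters as biological replicates. All cells received 1 µg/mL doxycycline on the day after siRNA transfection, and all carry a GFP reporter named for Myh6, the cardiac alpha-myosin heavy chain gene. In siJunb the siRNA was directed against Junb, whose protein forms AP-1 with a partner. In siH1f0 it was directed against H1f0, the linker histone H1.0. In siControl it was a control siRNA. The sample labels give day 1 after induction, whereas the series text gives day 3 and FACS of GFP-positive cells, and the files do not settle which holds. No group without doxycycline was analysed here, so the level of the factors before induction is not known from these libraries.

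Together the trio can turn fibroblasts towards a cardiomyocyte-like state. Mef2c is a MADS-box protein that binds A/T-rich sites in muscle genes and is held in check by class IIa histone deacetylases. Gata4 binds GATA sites through a pair of zinc fingers, and Tbx5 binds short T-box sites. In the heart the 3 proteins occupy many of the same enhancers. The balance among them is known to matter for reprogramming, with high Mef2c relative to Gata4 and Tbx5 described as favourable.

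Stretches that encode DNA-binding parts of each factor are shown from the reference mouse genes, not from the induced copies. They come from the GENCODE M21 principal transcripts on GRCm38 and are written 5′ to 3′ on the coding strand. Mef2c (gene 17260, chr13:83504017-83667079, plus strand) begins with its MADS box, of which the first 30 codons are given with the start codon in capitals. These codons lie between chr13:83575677-83592813 and are interrupted by an intron. Gata4 (gene 14463, chr14:63198914-63271712, minus strand) is shown by its zinc fingers at chr14:63204649-63204723 and chr14:63203683-63203757, with the codons of the zinc-binding cysteines in capitals. Tbx5 (gene 21388, chr5:119796514-119885220, plus strand) is shown by its T-box signature between chr5:119838735-119840770, also interrupted by an intron, with the pair of codons that opens the signature in capitals.
Mef2c, first 30 codons: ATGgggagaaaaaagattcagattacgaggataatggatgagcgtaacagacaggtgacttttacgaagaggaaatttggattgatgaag
Gata4, zinc finger 1: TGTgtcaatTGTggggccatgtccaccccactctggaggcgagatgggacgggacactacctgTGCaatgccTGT
Gata4, zinc finger 2: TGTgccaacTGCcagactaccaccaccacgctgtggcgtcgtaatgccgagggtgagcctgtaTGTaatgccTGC
Tbx5, T-box signature: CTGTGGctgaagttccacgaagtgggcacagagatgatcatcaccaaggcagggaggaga
The counts are summed per symbol over each gene. Reads of the induced copies and reads of the endogenous genes therefore cannot be told apart.

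The libraries held 48690447 to 85979630 counts. The knockdowns were visible in the targeted genes. Junb was at 10.46 and 8.729 CPM (counts scaled to a common library total) in siJunb, against 39.53 and 35.61 CPM in siControl (edgeR adjusted p = 1.6e-05, log2 change -1.93). For H1f0 the level was 52.32 and 55.33 CPM in siH1f0, against 807.7 and 741 CPM in siControl (log2 change -3.86, adjusted p = 7.12e-09). H1f0 was also lower in siJunb, at 652.6 and 638.4 CPM (log2 change -0.23, edgeR adjusted p = 0.021). Junb was at 30.38 and 31.65 CPM in siH1f0 (log2 change -0.29, edgeR adjusted p = 0.0778). Listed fibroblast markers summed to 11280 to 13690 CPM across the libraries, although Thy1 and Lum were at or near 0. The epithelial list summed to at most 0.06084 CPM and the endothelial list to at most 0.7453 CPM. The skeletal muscle list summed to at most 1.856 CPM, the macrophage and leukocyte list to at most 3.65 CPM and the neuronal list to 17.07 to 22.12 CPM. Mature cardiomyocyte markers summed to 116.9 to 142.8 CPM, while Myl2, Ryr2 and Pln stayed under 0.2 CPM in every library.

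Tbx5 and Gata4 were among the most abundant RNAs by count. Tbx5 had 2377 and 2345 CPM in siJunb, 2655 and 2525 CPM in siH1f0, and 1880 and 2549 CPM in siControl. It ranked between position 8 and position 11 of all symbols by count in every library. Gata4 had 1362 and 1318 CPM in siJunb, 1500 and 1415 CPM in siH1f0, and 853.6 and 1408 CPM in siControl. It ranked 20 to 24 in all libraries but siControl 1, where it ranked 72. Mef2c had 736.8 and 715.7 CPM in siJunb, 803.3 and 725.8 CPM in siH1f0, and 357.7 and 707.8 CPM in siControl. It ranked 80 to 109 in all libraries but siControl 1, where it ranked 425. Per exon length the ranks of Mef2c were lower, 597 and 629 in siJunb, 509 and 600 in siH1f0, and 1577 and 600 in siControl. On that scale Gata4 ranked 71 to 91 in all libraries but siControl 1 (192), and Tbx5 ranked 20 to 37 in all but siControl 1 (71). For each factor siControl 1 was the lowest of the 6 libraries and siH1f0 1 the highest, and the other siControl library lay inside or close to the range of the knockdown libraries.

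**Figure D1:**
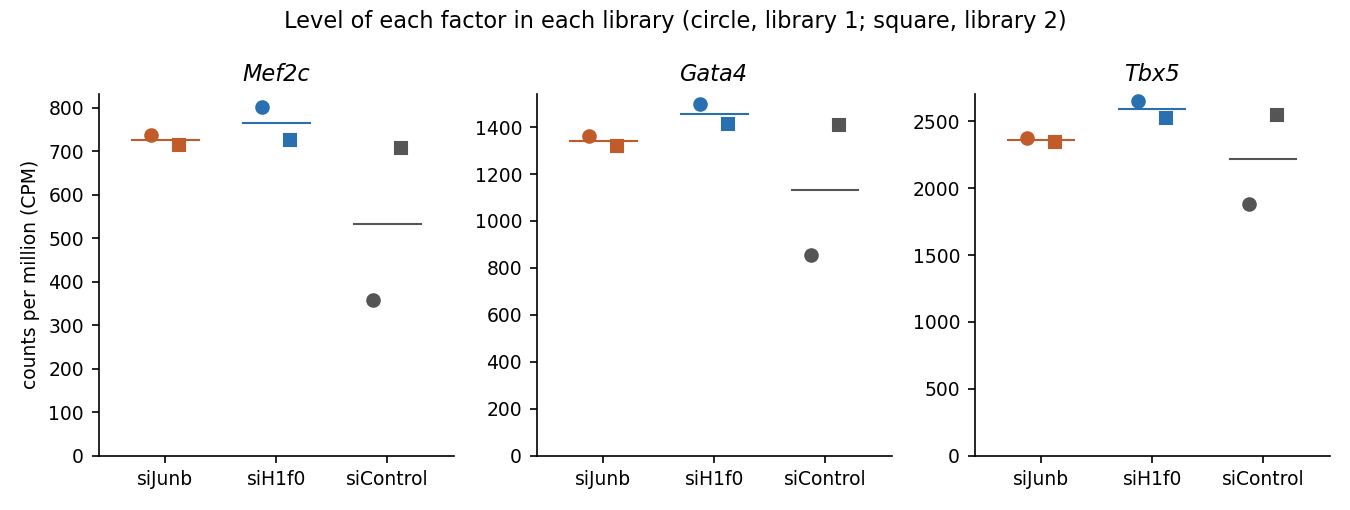
CPM of Mef2c, Gata4 and Tbx5 in each library of siJunb, siH1f0 and siControl, with library 1 as a circle, library 2 as a square and the group mean as a line. Counting intervals are smaller than the symbols, and siControl 1, at 357.7, 853.6 and 1880 CPM, is below every other library in each panel.

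Counting error was small at this depth. The 95% Wilson interval of Mef2c was 353.7 to 361.7 CPM in siControl 1 and 701.5 to 714.3 CPM in siControl 2. These intervals cover counting error only, since reads without molecular identifiers are not independent molecules. As group means, Mef2c was at 726.2 ± 14.9 CPM in siJunb, 764.5 ± 54.8 CPM in siH1f0 and 532.8 ± 248 CPM in siControl (SD, n = 2 each). Gata4 was at 1340 ± 31.3 CPM in siJunb, 1458 ± 59.9 CPM in siH1f0 and 1131 ± 392 CPM in siControl. Tbx5 was at 2361 ± 22.9 CPM in siJunb, 2590 ± 92.3 CPM in siH1f0 and 2214 ± 473 CPM in siControl. The coefficient of variation between the paired libraries of a group was thus 0.969% to 7.16% in the knockdowns and 21.4% (Tbx5), 34.7% (Gata4) and 46.5% (Mef2c) in siControl.

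Levels of different genes are comparable only per length. On exon length (6565 bases for Mef2c, 3408 for Gata4 and 3941 for Tbx5 in the deposited table) the order was Tbx5, then Gata4, then Mef2c in every library. In RPKM, which is CPM per kilobase, Mef2c was at 112.2 and 109 in siJunb, 122.4 and 110.6 in siH1f0, and 54.48 and 107.8 in siControl. Gata4 was at 399.8 and 386.8 RPKM in siJunb, 440.2 and 415.3 RPKM in siH1f0, and 250.5 and 413.2 RPKM in siControl. Tbx5 was at 603.2 and 595 RPKM in siJunb, 673.7 and 640.6 RPKM in siH1f0, and 477 and 646.8 RPKM in siControl. Tbx5 therefore exceeded Mef2c per exon base 5.38- to 6.00-fold in 5 libraries and 8.76-fold in siControl 1. The labels do not say which parts of each gene the induced copies hold. The same counts, not limited to reads in coding sequence, were also divided by coding length (1299, 1326 and 1557 bases). The order was the same in every library, with Tbx5 2.69- to 3.00-fold above Mef2c in 5 libraries and 4.38-fold above it in siControl 1. On that scale Gata4 exceeded Mef2c 1.80- to 1.95-fold in 5 libraries and 2.34-fold in siControl 1. The size of these gaps thus depended on the length used, while their direction was the same with either length.

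The trio took 0.448% and 0.438% of all counts in siJunb, 0.496% and 0.467% in siH1f0, and 0.309% and 0.467% in siControl. Of the trio's own counts Mef2c made up 16.5% and 16.3% in siJunb, 16.2% and 15.6% in siH1f0, and 11.6% and 15.2% in siControl. Tbx5 made up 53.1% and 53.6% in siJunb, 53.5% and 54.1% in siH1f0, and 60.8% and 54.6% in siControl. Gata4 took between 30.1% and 30.4% in 5 libraries and 27.6% in siControl 1. The composition was nearly constant in 5 libraries, and siControl 1 held less Mef2c and more Tbx5.

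Ratios between members of the trio within 1 library do not depend on scaling to library size. The ratio of Mef2c to Tbx5 counts was 0.310 and 0.305 in siJunb, 0.303 and 0.287 in siH1f0, and 0.190 and 0.278 in siControl. The ratio of Gata4 to Tbx5 was 0.573 and 0.562 in siJunb, 0.565 and 0.561 in siH1f0, and 0.454 and 0.552 in siControl. The ratio of Mef2c to Gata4 was 0.541 and 0.543 in siJunb, 0.535 and 0.513 in siH1f0, and 0.419 and 0.503 in siControl. In all 3 ratios both siControl libraries lay below all 4 knockdown libraries, siControl 1 by far and siControl 2 by little. The 3 ratios are not independent, since any 2 of them fix the remaining 1. How many other gene pairs separate the groups likewise was not checked. The 95% counting interval of Mef2c to Tbx5 was 0.285 to 0.290 in siH1f0 2, the nearest knockdown library, and lay above the 0.275 to 0.281 of siControl 2. For Gata4 to Tbx5 (0.556 to 0.565 in siH1f0 2 and 0.548 to 0.557 in siControl 2) and for Mef2c to Gata4 (0.507 to 0.519 in siH1f0 2 and 0.497 to 0.508 in siControl 2) the intervals overlapped.

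**Figure D2:**
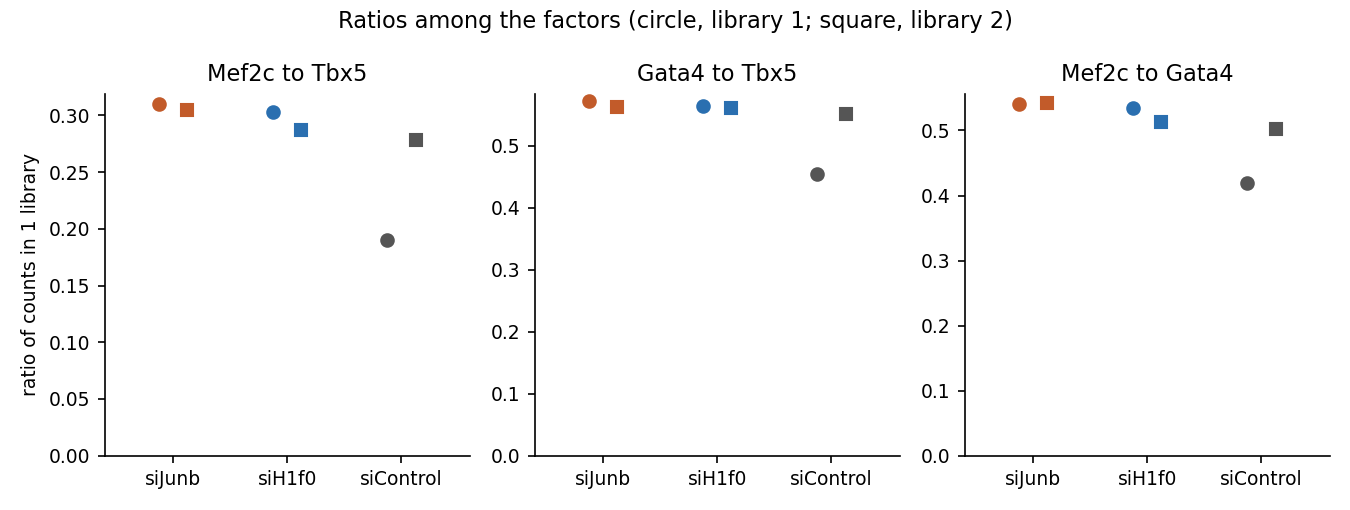
Ratio of counts between members of the trio in each library of siJunb, siH1f0 and siControl, with library 1 as a circle and library 2 as a square. Mef2c to Tbx5 runs from 0.287 to 0.310 in the knockdown libraries, and siControl 1 (0.190) stands lower than siControl 2 (0.278).

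The log2 ratio of Mef2c to Tbx5 was higher by 0.42 in siJunb and by 0.36 in siH1f0 than in siControl. Each of these comparisons reached p = 0.333 in an exact two-sided permutation test, the smallest value that 2 libraries against 2 allow. Both knockdowns together exceeded siControl by 0.39 for Mef2c to Tbx5, 0.17 for Gata4 to Tbx5 and 0.22 for Mef2c to Gata4 (exact two-sided permutation p = 0.0667 each, the smallest that 4 against 2 allow; 0.267 after Benjamini-Hochberg adjustment over 12 relations). Without siControl 1 the 3 differences were 0.12, 0.03 and 0.08, and without siControl 2 they were 0.66, 0.32 and 0.35. The direction was thus the same against either siControl library, and the size was set by siControl 1. Between the knockdowns the log2 ratio of Mef2c to Tbx5 was lower by 0.06 in siH1f0 than in siJunb (exact permutation p = 0.333), without overlap, and that of Gata4 to Tbx5 differed by -0.01 with overlapping libraries (exact permutation p = 0.667).

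The comparison of siJunb with siControl addresses the levels of the factors when Junb is knocked down. None of the 3 passed edgeR's quasi-likelihood test, in which 16.5% of all 13427 genes passed. The log2 change was 0.48 ± 0.25 for Mef2c (SE; adjusted p = 0.217; 95% interval -0.08 to 1.04), 0.28 ± 0.18 for Gata4 (adjusted p = 0.333; -0.14 to 0.70) and 0.13 ± 0.12 for Tbx5 (adjusted p = 0.502; -0.14 to 0.40). In siH1f0 against siControl, where 6.55% of genes passed, again 0 of the 3 did. There the log2 change was 0.50 ± 0.25 for Mef2c (adjusted p = 0.267; -0.06 to 1.06), 0.35 ± 0.18 for Gata4 (adjusted p = 0.299; -0.07 to 0.77) and 0.21 ± 0.12 for Tbx5 (adjusted p = 0.334; -0.06 to 0.48). In both comparisons 0 of the 3 had an unadjusted p under 0.05, and DESeq2 and limma-voom also called 0. The knockdown groups share the siControl libraries, so these results are not independent of each other.

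The siControl library that is kept decides these values. Against siControl 2 alone, fits in which 33.6% of all genes passed in siJunb and 21% in siH1f0, Mef2c differed by 0.06 in siJunb (adjusted p = 0.164) and by 0.09 in siH1f0 (0.0696). Gata4 differed by -0.05 in siJunb (0.269) and by 0.03 in siH1f0 (0.618), and Tbx5 fell by 0.08 in siJunb (0.0159) and differed by -0.001 in siH1f0 (0.985). Against siControl 1 alone, each factor was higher and passed in siJunb (Mef2c by 1.06, Gata4 by 0.69, Tbx5 by 0.37) and likewise in siH1f0 (by 1.09, 0.76 and 0.45). In those fits 40.2% of all genes passed in siJunb and 35.9% in siH1f0. In all of these Mef2c had the largest value and Tbx5 the smallest. With no count filter (17713 genes) the 3 factors also passed in both knockdowns with nearly the same log2 changes. Mef2c was at edgeR adjusted p = 7.04e-18 in siJunb and 6.66e-20 in siH1f0, where 18.4% and 10.8% of genes passed. The libraries were the same as with the filter (0.217 and 0.267), and Mef2c was still at 357.7 and 707.8 CPM in siControl. The smaller p-values are therefore not read as a rise of the factors, and their cause was not tested.

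**Figure D3:**
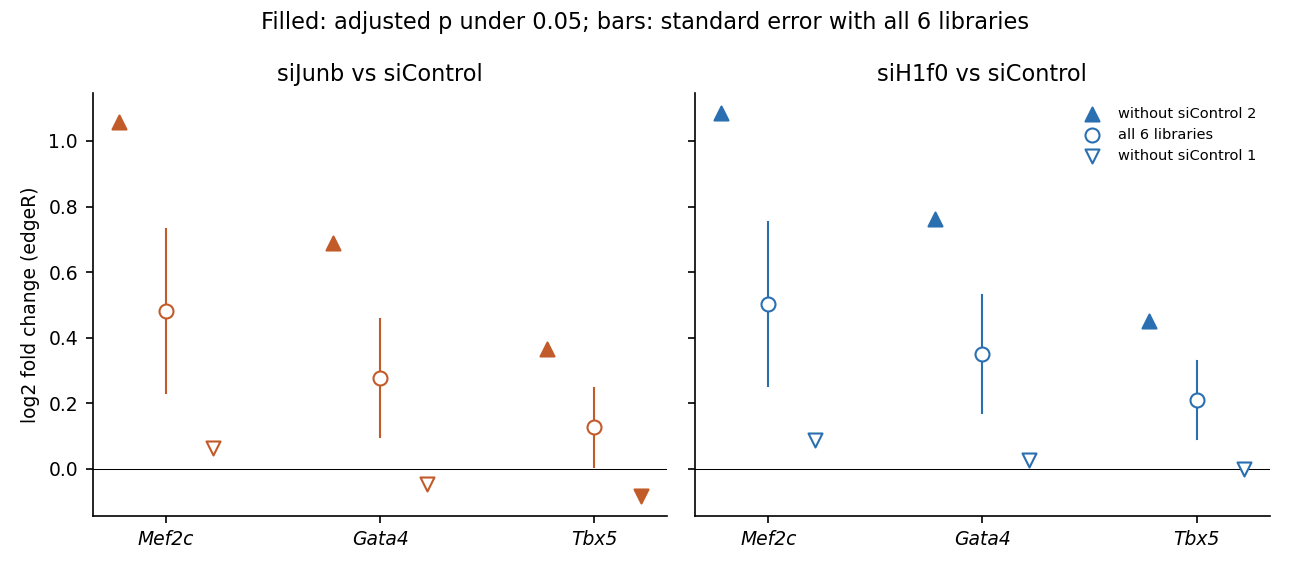
Log2 fold change of each factor in siJunb and in siH1f0 against siControl from edgeR, with all 6 libraries (circles, bars are standard errors), without siControl 2 (upward triangles) and without siControl 1 (downward triangles). Filled symbols passed at an adjusted p under 0.05, and Mef2c in siJunb runs from 0.06 without siControl 1 to 1.06 without siControl 2.

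Between the knockdowns, siH1f0 against siJunb, 25.9% of genes passed and 0 of the 3 factors did (0 at an unadjusted p under 0.05, and 0 with DESeq2 or limma-voom). The log2 difference was 0.02 ± 0.24 for Mef2c (adjusted p = 0.957; 95% interval -0.53 to 0.58), 0.07 ± 0.18 for Gata4 (0.812; -0.35 to 0.49) and 0.08 ± 0.12 for Tbx5 (0.648; -0.19 to 0.35). These intervals take in the spread of the siControl pair, which shares the estimate. With only the 4 knockdown libraries in the fit, Gata4 was higher in siH1f0 by 0.07 (adjusted p = 0.0133) and Tbx5 by 0.09 (0.00222), in a fit where 48.6% of all genes passed. In CPM on the plain library totals both siH1f0 libraries were above both siJunb libraries for Gata4 and Tbx5. For Mef2c siH1f0 2 (725.8 CPM) lay below siJunb 1 (736.8 CPM). The TMM factors of the fit, 0.979 and 0.981 in siJunb and 1.01 and 1.02 in siH1f0, narrow the gaps of Gata4 and Tbx5. Whether the libraries still separate on that scale, and how many other genes separate likewise, was not checked.

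The factors were among the well-expressed genes that differed most within siControl. The log2 CPM ratio of library 2 over library 1 in siJunb was -0.04 for Mef2c, -0.05 for Gata4 and -0.02 for Tbx5. In siH1f0 it was -0.15 for Mef2c, -0.08 for Gata4 and -0.07 for Tbx5. By absolute size these siH1f0 values stood at percentiles 99.8, 93.8 and 89.3 of the 2766 genes with a mean of at least 100 CPM. Those of siJunb stood at percentiles 71.4, 76.1 and 38.4 of these genes. In siControl the ratio was 0.98 for Mef2c, 0.72 for Gata4 and 0.44 for Tbx5, at percentiles 99.9, 99.8 and 98.4 of the same genes, whose median absolute ratio was 0.11. Set against all 13427 tested genes, many of them with few counts, the percentiles of Mef2c, Gata4 and Tbx5 were 39.5, 43.6 and 20.2 in siJunb, 76.9, 62.1 and 57.1 in siH1f0, and 97.7, 95.5 and 90.1 in siControl. In siH1f0, as in siControl, Mef2c therefore differed most and Tbx5 least.

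Several library properties moved with siControl 1. Rn45s, the ribosomal RNA precursor, which carries no poly(A) tail, was at 6547 and 4986 CPM in siJunb, 3082 and 3479 CPM in siH1f0, and 18980 and 6274 CPM in siControl. Rmrp, the RNA of RNase MRP, was at 5.682 and 3.286 CPM in siJunb, 2.509 and 2.418 CPM in siH1f0, and 26.34 and 6.637 CPM in siControl, and Mir6236 was likewise highest in siControl 1, at 59.94 CPM. Long transcripts were also scarcer there. With the genes cut by exon length into 5 bins of equal size, from shortest to longest, the median log2 ratio of library 2 over library 1 went between 0.009 and -0.004 in siJunb and between 0.037 and -0.026 in siH1f0. In siControl it was -0.163, -0.094, -0.042, 0.035 and 0.156. Base composition moved with siControl 1 as well. Cut likewise by transcript GC from low to high (97.5% of tested genes have a value), the siControl medians were 0.072, 0.026, -0.023, -0.066 and -0.105, while those of siJunb ran from 0.016 to -0.027 and those of siH1f0 from 0.008 to -0.003. Transcript GC was 40.8% for Mef2c, 57.4% for Gata4 and 51.3% for Tbx5, and genes near the factors in GC were not set beside them. The factors went beyond genes of their own length. Within 0.5 log2 units of each factor's exon length and at a mean of at least 20 CPM, the siControl ratio of Mef2c was exceeded by 3 of 1923 genes, that of Gata4 by 11 of 3412 and that of Tbx5 by 56 of 3382. With RNAs that lack poly(A) tails removed before scaling, none of the 3 factors passed either. The part of these properties in the low factor counts of siControl 1 was not tested, and in bulk RNA fewer induced cells and less factor RNA per cell cannot be told apart.

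**Figure D4:**
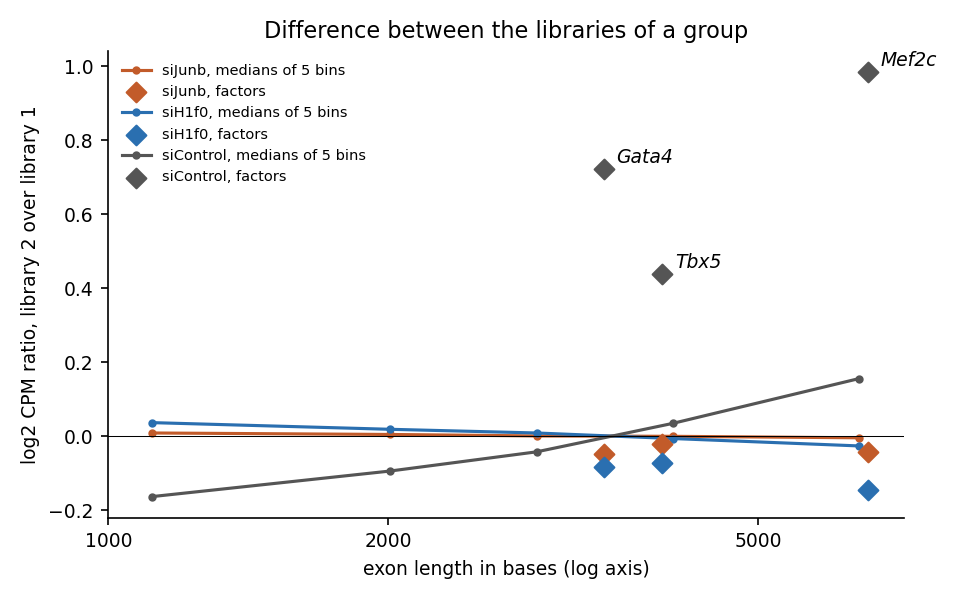
Log2 CPM ratio of library 2 over library 1 in siJunb, siH1f0 and siControl against exon length on a log axis, as medians of 5 length bins of all tested genes (lines, drawn at the median length of each bin) and for each factor (diamonds). In siControl the line climbs from -0.163 to 0.156 and the factors lie above it at 0.98, 0.72 and 0.44.

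Within each family the induced member outweighed its paralogues. Gata4 made up 97.4% and 97.4% of the RPKM of its 6-gene family in siJunb, 97.5% and 97.4% in siH1f0, and 96.0% and 97.4% in siControl. The next GATA gene, Gata6, a partner of Gata4 in heart development, had 7.75 to 8.30 RPKM in all libraries. Tbx5 made up 93.1% to 94.6% of the 17-gene T-box family, followed by Tbx15, a regulator of limb and skeletal development, at 8.01 to 10.4 RPKM. Mef2c held a smaller part of the 4-gene MEF2 family, 69.6% and 69.6% in siJunb, 74.8% and 73.1% in siH1f0, and 57.2% and 70.8% in siControl. Mef2a, a widely expressed MEF2 gene, was next, at 22.2 to 25.1 RPKM. All of these family shares use exon length, and shares on coding length were not computed. Between the siControl libraries Mef2a was at 22.2 RPKM in siControl 1, the lowest of all libraries, and 25 RPKM in siControl 2. Gata6 was at 7.86 RPKM in siControl 1 and 8.26 RPKM in siControl 2. Of the 12 tested paralogues Mga differed most between these libraries (90.67 CPM in siControl 1, the lower, and 125.2 in siControl 2), a log2 ratio of 0.47 that was larger than that of Tbx5 (0.44).

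A paralogue of Mef2c did change. Mef2d, a broadly expressed MEF2 factor that binds the same sites, was at 146.5 and 138.8 CPM in siJunb, 92.47 and 87.17 CPM in siH1f0, and 102.8 and 108.5 CPM in siControl. The 3 groups did not overlap, with siJunb highest and siH1f0 lowest, and how many other genes separate likewise was not checked. Mef2d rose in siJunb (log2 0.47 ± 0.06, adjusted p = 0.00183) and fell in siH1f0 (-0.25 ± 0.06, 0.0422), and siH1f0 lay below siJunb by -0.72 ± 0.06 (9.86e-05). The siJunb call and the direct difference held under every alternative, whereas the siH1f0 call was lost under several, among them without any 1 of the 4 knockdown libraries (adjusted p up to 0.330) and with only the 4 libraries compared. Tbx3, a T-box repressor of the conduction system, had 30.76 and 32.04 CPM in siJunb, 41.43 and 39.07 CPM in siH1f0, and 41.02 and 40.56 CPM in siControl. It fell in siJunb (-0.34 ± 0.06, 0.00682), a call lost without either siJunb library (up to 0.102). Of 8 tested T-box genes it was the 1 that passed in siJunb, where 7.82% of all genes were lower, and 0 passed in siH1f0, where 4.27% were. These counts cover Tbx5 itself and depend on the siControl library kept. The median log2 change of the tested T-box genes was -0.104 in siJunb and -0.066 in siH1f0. It was -0.207 and -0.118 without siControl 1, and -0.053 and -0.014 without siControl 2. Of 4 tested GATA genes 0 passed in either knockdown, with Gata6 at -0.02 in siJunb (adjusted p = 0.865) and 0.01 in siH1f0 (0.918). Among the tested T-box genes with the highest counts in siH1f0, Mga, a T-box and Max-binding repressor, differed by 0.10 (0.683).

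Of the listed partners of the trio, a few deacetylases and Nfatc4 passed the test, in counts that depend on single libraries. The cardiac partners Nkx2-5, Hand1, Hand2 and Isl1 had 0 counts in every library, while Myocd had at most 0.06978 CPM. Of 18 tested partners and co-regulators of 25 listed, 4 were lower and 0 higher in siJunb, where 7.82% of all genes were lower and 8.63% higher. The list's median log2 change was -0.04, against 0.002 for all genes. The 4 were Hdac9 (-0.59 ± 0.09, adjusted p = 0.0035), Hdac5 (-0.25, 0.0168) and Hdac4 (-0.29, 0.0234), class IIa histone deacetylases that bind and repress MEF2 factors, and Nfatc4 (-0.25, 0.0276), a calcineurin-responsive factor that can act with GATA4. Hdac9 had 18.03 and 17.7 CPM in siJunb, 20.44 and 20.34 CPM in siH1f0, and 25.4 and 29.88 CPM in siControl. In siH1f0, where 4.27% of genes were lower and 2.27% higher, Hdac9 (-0.45, 0.0196) and Hdac7 (-0.24, 0.0486), another class IIa deacetylase, were lower and 0 were higher (median -0.04 against 0.003 for all genes). The calls of Hdac4, Hdac5 and Nfatc4 in siJunb and those of Hdac9 and Hdac7 in siH1f0 were lost without any 1 of the 4 knockdown libraries, and Hdac9 in siJunb without siJunb 2 (0.0541). Without siControl 1 the list held 2 higher and 9 lower members in siJunb, where 18% and 15.6% of all genes were, and 0 and 7 in siH1f0, where 9.03% and 12% were. Without siControl 2 it held 6 higher and 6 lower in siJunb (22.1% and 18.1% of all genes) and 7 and 4 in siH1f0 (18.9% and 17%). In siH1f0 it held 0 in either direction without any 1 of the knockdown libraries, and in siJunb 0 higher and at most 1 lower.

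Among 19 kinases and phosphatases that act on the trio or its partners, the counts were near those of all genes and depended on single libraries. In siJunb, where 8.63% of all genes were higher and 7.82% lower, 1 of 19 was higher, Camk2d, the cardiac calmodulin-dependent kinase (0.23, adjusted p = 0.0147), and 2 were lower. Those were Prkd1, protein kinase D, which drives class IIa deacetylases out of the nucleus (-0.33, 0.00734), and Map2k6, an activator of the p38 kinases that phosphorylate MEF2 factors (-0.61, 0.00916). In siH1f0 Map2k3, a close relative of Map2k6 (-0.42, 0.00832), and Mapk3, the kinase ERK1 (-0.26, 0.0328), were lower and 0 of 19 were higher, against 4.27% and 2.27% of all genes. The list's median was 0.02 in siJunb and 0.002 in siH1f0, against 0.002 and 0.003 for all genes. Without either siJunb library the siJunb calls were lost, and without either siH1f0 library the siH1f0 calls were lost. The calls of Camk2d in siJunb and Mapk3 in siH1f0 were lost without any 1 of the 4 knockdown libraries. They were also lost with only the 4 libraries compared. The counts also changed with the siControl library left out. The list's median was 0.013 in siJunb and 0.002 in siH1f0 without siControl 1, and 0.004 and 0.012 without siControl 2.

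Several textbook cardiac targets of the trio passed the test where the trio did not. Of 21 tested targets of 33 listed, 8 were lower and 2 higher in siJunb, 38.1% and 9.52%, against 7.82% and 8.63% of all genes, with a median log2 change of -0.32 against 0.002. The counts changed with each library left out. The median was -0.17 without siControl 1, -0.395 without siControl 2, -0.299 without siJunb 1 and -0.309 without siJunb 2. Actc1, cardiac alpha-actin, had 3.71 and 3.943 CPM in siJunb, 18.68 and 20.34 CPM in siH1f0, and 22.44 and 19.62 CPM in siControl. Both siJunb libraries were far below the other 4 (log2 -2.43 ± 0.10, adjusted p = 7.86e-06). Myl7, the atrial regulatory myosin light chain, had 4.79 and 4.662 CPM in siJunb, 17.28 and 16.18 CPM in siH1f0, and 16.4 and 13.52 CPM in siControl (siJunb -1.63 ± 0.11, 9.28e-05).

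Casq2, the calcium-binding protein of the cardiac sarcoplasmic reticulum, had 29.14 and 29.66 CPM in siJunb, 38.63 and 37.93 CPM in siH1f0, and 52.99 and 51.67 CPM in siControl. It fell in siJunb (-0.80 ± 0.05, adjusted p = 9.28e-05) and in siH1f0 (-0.47 ± 0.05, 0.00176). Lmod2, which lengthens thin filaments, was also lower in both (-0.73, 0.00189 in siJunb and -0.53, 0.0121 in siH1f0), as was Xirp1, an intercalated disc protein at under 3.1 CPM (-1.54, 0.00398 and -1.09, 0.0241). Hopx, a homeodomain-only regulator in the cardiac lineage, rose in both (0.50, 0.0157 and 0.53, 0.0223), and Nppb, which encodes B-type natriuretic peptide, rose in siJunb (1.01, 0.0229) at 1.878 and 2.485 CPM, against 1.093 and 1.106 CPM in siControl. Tnni3, cardiac troponin I, went opposite ways. It had 2.739 and 2.814 CPM in siJunb, 8.067 and 9.339 CPM in siH1f0, and 5.164 and 5.621 CPM in siControl. It fell in siJunb (-0.92 ± 0.13, 0.00275) and rose in siH1f0 (0.68 ± 0.11, 0.0114), and siH1f0 exceeded siJunb by 1.60 ± 0.13 (7.89e-05). Myh6, the gene for which the reporter is named, passed in neither knockdown (-0.32, 0.0908 in siJunb and 0.38, 0.0754 in siH1f0) and was higher in siH1f0 than in siJunb (0.69, 0.00266).

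In siH1f0 the target list held 3 lower and 2 higher members, 14.3% and 9.52%, against 4.27% and 2.27% of all genes. Its median was 0.003, the same as all genes. The count of members that passed rests on single libraries and changed with each siControl or siH1f0 library left out. The median was then 0.034 without siControl 1, -0.177 without siControl 2, 0.013 without siH1f0 1 and -0.058 without siH1f0 2. Directly compared, siH1f0 held 8 targets above siJunb and 2 below, where 12.2% of all genes were higher and 13.8% lower. The siJunb calls of Actc1, Myl7, Casq2, Lmod2 and Tnni3 held under every alternative, including each library left out in turn. That of Xirp1 was lost without siJunb 1 (adjusted p = 0.0589), and those of Hopx and Nppb without either siJunb library (up to 0.177). In siH1f0 the calls of Lmod2, Tnni3, Hopx and Xirp1 were lost without either siH1f0 library and that of Casq2 without siH1f0 2. The siH1f0 calls of Hopx and Xirp1 were also lost without either siJunb library and with only the 4 libraries compared. The summed level of mature cardiomyocyte markers was 116.9 and 119.3 CPM in siJunb, 133.3 and 142.8 CPM in siH1f0, and 138.0 and 121.1 CPM in siControl. Tnnt2, cardiac troponin T, made up most of that sum, with 97.8 and 100.2 CPM in siJunb, 103.0 and 110.2 CPM in siH1f0, and 106.5 and 94.02 CPM in siControl. Without Tnnt2 the sum was 19.06 and 19.10 CPM in siJunb, 30.35 and 32.58 CPM in siH1f0, and 31.52 and 27.05 CPM in siControl, so both siJunb libraries were below the other 4. Of the 6 tested markers 2 were lower and 0 higher in siJunb (median log2 change -0.69), where 7.82% and 8.63% of all genes were. In siH1f0, where 4.27% of all genes were lower and 2.27% higher, 1 marker was lower and 1 higher (median 0.06). These markers are not independent of the targets, since 9 of the 10 listed are on both lists, and their part in these results was not tested.

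**Figure D5:**
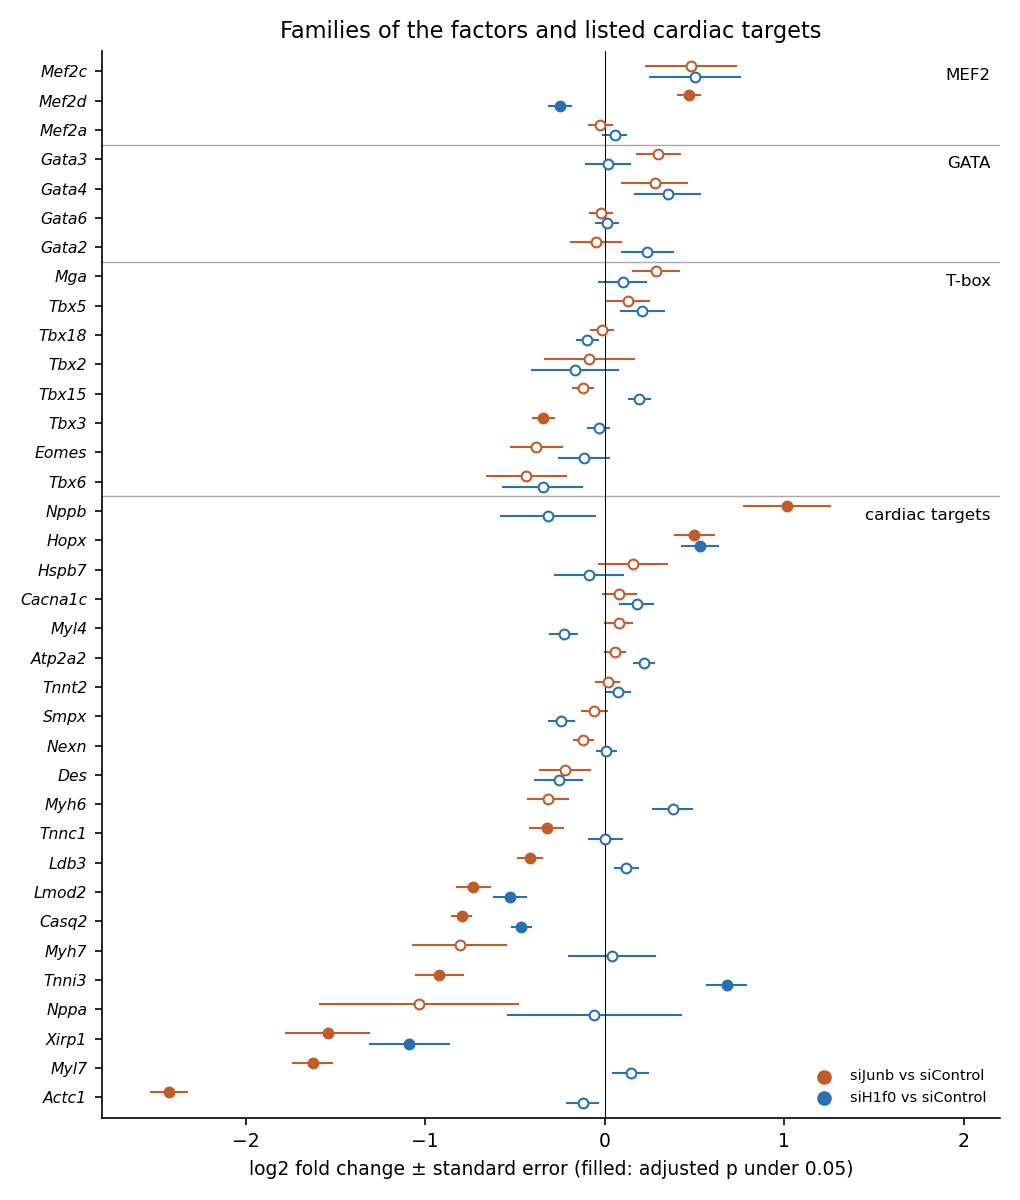
Log2 fold change with standard error for the tested members of the MEF2, GATA and T-box families and of the cardiac target list, in siJunb and siH1f0 against siControl. Filled points passed at an adjusted p under 0.05, and Actc1 (-2.43) and Myl7 (-1.63) stand out in siJunb while the symbols of the 3 induced factors are not filled.

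Promoters of 3 targets that were lower in siJunb are shown with short letter patterns modelled on the binding sites of the factors and of AP-1. RefSeq windows on GRCm38.p6, from 250 bases before to 50 bases after the start, were found for 29 of the 33 targets. They were searched on both strands for the MEF2 letters CTANNNNTAG, the GATA words (GATA after an A or a T and before an A or a G), the T-box half-site AGGTGT and the AP-1 letters TGANTCA. Of 27025 genes with a window, 4.23% held the MEF2 letters, 33.0% a GATA word, 15.7% the T-box half-site and 8.97% the AP-1 letters. Of the 29 targets, 3, 14, 4 and 1 did. A MEF2 match can overlap a GATA word. The middle bases of the MEF2 letters were left free. Each of the 3 targets with a MEF2 match (Des, Smpx and Ldb3) holds a C or a G among them. These matches are therefore looser than a fully A/T-rich site. The windows of Myl7 (chr11:5898733-5899032, minus strand), Tnni3 (chr7:4522479-4522778, minus strand) and Ldb3 (chr14:34588632-34588931, minus strand) hold a GATA word, a T-box half-site, and MEF2 and AP-1 letters, each in capitals. Ldb3 encodes a Z-disc protein and was chosen after its values were seen (siJunb -0.42, adjusted p = 0.00481, lost without either siJunb library).
Myl7: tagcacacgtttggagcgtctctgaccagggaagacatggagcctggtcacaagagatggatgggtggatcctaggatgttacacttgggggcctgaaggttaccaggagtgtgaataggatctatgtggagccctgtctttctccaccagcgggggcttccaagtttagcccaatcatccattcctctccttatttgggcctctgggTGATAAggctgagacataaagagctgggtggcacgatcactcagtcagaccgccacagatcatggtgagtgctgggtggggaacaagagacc
Tnni3: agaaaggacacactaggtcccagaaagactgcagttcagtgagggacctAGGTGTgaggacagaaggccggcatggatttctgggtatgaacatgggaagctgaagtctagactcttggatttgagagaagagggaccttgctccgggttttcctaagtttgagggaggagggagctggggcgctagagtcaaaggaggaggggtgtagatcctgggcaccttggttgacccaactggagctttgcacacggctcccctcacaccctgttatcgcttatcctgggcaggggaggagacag
Ldb3: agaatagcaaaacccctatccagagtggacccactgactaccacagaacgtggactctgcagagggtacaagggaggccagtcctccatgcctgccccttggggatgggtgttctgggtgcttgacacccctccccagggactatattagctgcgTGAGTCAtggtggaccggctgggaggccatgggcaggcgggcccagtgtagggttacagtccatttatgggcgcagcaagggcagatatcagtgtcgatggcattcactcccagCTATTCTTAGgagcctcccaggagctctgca
Relative to the start, the GATA word of Myl7 begins at -42 and the half-site of Tnni3 at -201. In the Ldb3 window shown, the AP-1 letters begin at -95 and the MEF2 letters at 19, after the start. In another Ldb3 window (chr14:34588558-34588857) they begin at -169 and -55, and a GATA word is added. Actc1, which fell most, holds none of these letters in its window. Nor do Casq2 and Tnnc1 (siJunb -0.32, edgeR adjusted p = 0.0458), which were also lower. Lmod2 holds 2 GATA words, and no window was found for Xirp1. A match is a description of the sequence and does not show binding.

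Across the 6 libraries the log2 CPM of the factors, scaled by TMM factors, gave Pearson's r of 0.993 between Mef2c and Gata4, 0.969 between Mef2c and Tbx5 and 0.990 between Gata4 and Tbx5. In the 5 libraries other than siControl 1 the r was 0.657, 0.395 and 0.935, so the likeness of Mef2c to the others rests largely on that library. The genes whose profile was most like the trio's mean, among 1406 genes with a mean of at least 5 CPM and a range no smaller than that of Tbx5, were Rel (r = 0.997), Hook3, Ulbp1, Tmtc3, Alms1 and Socs4 (0.994 to 0.995). Each of them was lowest in siControl 1. Rel, for example, was at 20.08 and 19.1 CPM in siJunb, 21.72 and 19.61 CPM in siH1f0, and 12.15 and 20.3 CPM in siControl. Without siControl 1 the r of these 6 genes was 0.669 to 0.944, so their likeness rests largely on that library. The profiles most opposed to the trio's were those of Rpl37a, a ribosomal protein gene (-0.965), Polr2h, a subunit shared by RNA polymerases (-0.947), and Rn45s (-0.901), all highest in siControl 1. These correlations share the same libraries and depths and are given as descriptions.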

How the data were processed

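The deposited table holds raw read counts per gene symbol made by the authors, whole numbers that were not normalised, with an exon length per gene. Per the submitters' processing notes, HISAT2, Subread, featureCounts and the build mm10 were used. For the versions, annotation, strand setting and multiply matching reads, details are not given in the sources used. All 6 library columns were used. Groups and replicate numbers follow the sample labels. In R 4.3.3, edgeR 4.0.16 fitted the quasi-likelihood model to all 6 libraries (TMM factors 0.979 to 1.02, filterByExpr, group as the only term, 3 residual degrees of freedom), with calls at an adjusted p under 0.05 (Benjamini-Hochberg, all 13427 genes). CPM use the plain library total, and RPKM divide them by length. Ratios were compared on the log2 scale by exact permutation. Likeness to the trio is Pearson's r of log2 CPM scaled by the TMM factors.

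As alternatives, scaling used RLE size factors or total counts, or dropped RNAs without poly(A) tails. The filter was removed or set to a mean of 5 CPM, DESeq2 1.42.0 or limma-voom 3.58.1 replaced edgeR, the fit took the 4 compared libraries alone or a replicate block, and libraries were left out in turn. A library left alone in its group was assumed to vary as the rest do. P-values measure the spread between these libraries of 1 line. The members and lists were chosen with earlier results of these data known. The genes named are the trio, the siRNA targets, called members of each list (up to 4 per direction by smallest p, otherwise the 2 with the highest CPM), the highest paralogue of each family, and the genes most and least like the trio. Coding lengths and coding sequences came from GENCODE M21, promoters from RefSeq GRCm38.p6.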

Additional observations from a re-analysis of the deposited data

How the results depend on the processing

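For the log2 changes of Mef2c, Gata4 and Tbx5, 113 of 135 alternative values kept direction and call, 18 newly passed with the same sign and 4 changed sign. Of those 4, Tbx5 in siJunb without siControl 1 also passed (adjusted p = 0.0159), which makes 19 new passes. With no count filter, edgeR gave 0.472 for Mef2c, 0.271 for Gata4 (adjusted p = 6.24e-07) and 0.119 for Tbx5 (0.0469) in siJunb against siControl. In siH1f0 it gave 0.50, 0.345 (8.51e-11) and 0.206 (0.000172). All of these passed, on the same libraries and with the same CPM spread within siControl as in the main fit. With each library left out, the ranges in siJunb were 0.064 to 1.059 (Mef2c), -0.045 to 0.688 (Gata4) and -0.084 to 0.366 (Tbx5), those in siH1f0 were 0.087 to 1.086, 0.026 to 0.762 and -0.001 to 0.452, and those of siH1f0 against siJunb were -0.05 to 0.101, 0.029 to 0.118 and 0.047 to 0.125. The sign changes came without siControl 1 (Gata4 and Tbx5 in siJunb, Tbx5 in siH1f0) and without siH1f0 1 (Mef2c, direct comparison). With only the 4 knockdown libraries siH1f0 exceeded siJunb in Gata4 (0.074) and Tbx5 (0.087), both past the test, where 48.6% of all genes passed. Gata4 and Tbx5 differed by 0.071 and 0.083 without siControl 1, and by 0.074 and 0.087 without siControl 2. These fits compare the same 4 knockdown libraries and are not separate evidence.

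The number of genes called (2209, 879 and 3484 for siJunb, siH1f0 and siH1f0 against siJunb) was 1092, 325 and 6416 with only the 4 libraries compared, and 1921 for siH1f0 with no count filter. Leaving out each library gave 352 to 5521, 116 to 4931 and 1304 to 6435. The replicate numbers did not pair the libraries (correlation of same-numbered deviations 0.063, 0.048 and -0.041). With the replicate block 1684, 550 and 2919 genes were called, and Mef2c was at 0.527 in siJunb (adjusted p = 0.179) and 0.555 in siH1f0 (0.234). Under it Mef2d (0.0784), Mapk3 (0.0659) and Hdac7 (0.0821) were lost in siH1f0, Tnnc1 (0.0691) in siJunb, and Camk1 (0.052) and Mapk3 (0.0599) in siH1f0 against siJunb.

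The ratio differences between both knockdowns and siControl ranged over 0.117 to 0.662 (Mef2c to Tbx5), 0.033 to 0.316 (Gata4 to Tbx5) and 0.084 to 0.347 (Mef2c to Gata4) with a siControl library left out, an alternative added after seeing the data, as was the coding length, used because no protein table was at hand. The correlations among the factors without siControl 1 and the marker sum without Tnnt2 were also added after seeing the data. Of the 6 genes most like the trio, 1 remained with Spearman's rho and 1 without siControl 1. Where the cause of a change is not given by the library left out, the cause was not tested. Depth gave each factor at least 30753 counts in every library, so counting error is far smaller than the spread between the siControl libraries.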
